A study of Mus musculus with 9 samples.

Results

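Interferon-inducible GTPases are large guanine nucleotide-binding proteins that cells make in response to interferons, and 10 of their genes in the mouse were examined here in adult hearts with and without Cre-mediated deletion of Ezh2: Iigp1, Irgm1, Irgm2, Igtp and Ifi47 of the immunity-related GTPase (IRG) family, and Gbp2, Gbp3, Gbp5, Gbp6 and Gbp7 of the guanylate-binding protein (GBP) family. The probe sets were chosen by their mean log2 level: each gene was to be read at the probe set that is annotated to it alone and has the highest mean over all 9 arrays. Such a probe set existed for 5 of the 10 genes, Iigp1, Irgm1, Gbp3, Gbp5 and Gbp7, among 19935 genes with a probe set of their own. The other 5 genes were found only on 4 probe sets annotated to several genes at once. Those probe sets give no value for a single gene and are described apart. The genotype difference did not enter that choice, but the genes were listed with earlier results of these data known.

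The samples were right ventricle with interventricular septum of adult mice on a mixed background of C57BL/6, with 1 Affymetrix array per heart. The 5 wild-type hearts are labelled Ezh2f/f and carried no Cre by their labels, although their titles name f/wt. The 4 Ezh2-deficient hearts are labelled Ezh2f/f;Mef2cAHF::Cre, with f/f in their titles. An enhancer of Mef2c drives the Cre in progenitors of the anterior heart field, which build the right ventricle, much of the septum and the outflow tract, while cells that enter the heart from elsewhere, such as blood cells, lie outside it. Only the Ezh2-deficient hearts carry the transgene, so loss of Ezh2 and presence of Cre cannot be told apart. Ezh2 itself, the catalytic subunit of Polycomb repressive complex 2, read 8.73 ± 0.12 (SD, n = 5, log2) in the wild type and 8.88 ± 0.11 (SD, n = 4) in the Ezh2-deficient hearts (limma adjusted p = 0.485), so its level does not check the labels. Array medians lay between 7.19 and 7.25. By low mean levels of Y-linked genes (4.8 to 5.5), 1 of 5 wild-type and 2 of 4 Ezh2-deficient hearts read as female, so sex was not balanced between genotypes. The titles carry a letter, e for 2 wild-type and 2 Ezh2-deficient hearts and x for 3 and 2, whose meaning is not given. In wild-type hearts 3 and 5 and Ezh2-deficient heart 2 the x is followed by a prime, also unexplained. Wild-type hearts 3 and 4 are titled 3x' and 3x, and why they share a number is not stated.

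Interferon gamma and the type I interferons bind separate receptors at the cell surface, whose Janus kinases pass the signal to the nucleus. Genes that respond carry gamma-activated sites, interferon-stimulated response elements or both in their promoters, and IRF1 is among the factors that bind the latter. The IRG and GBP proteins that are made then gather on the membranes of vacuoles that hold parasites or bacteria and help to break them down, while the Irgm subgroup guards the cell's own membranes. Many resting tissues hold some of these transcripts, since endothelial cells, macrophages and fibroblasts all respond to interferon.

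Most of the members whose upstream sequences could be matched hold the same element. Promoters from RefSeq (GRCm38.p6) were matched by symbol for 8 of the 10 genes; Iigp1 and Gbp6 were not matched. The core of the interferon-stimulated response element, here GAAA, any 2 bases and GAAA again, searched on both strands and with overlapping matches kept in the 300 bases from 250 before to 50 after the start, was held by 7 of the 8 genes (87.5%), all but Ifi47. Over all 27025 genes with a promoter in the table the share was 3.99%. The core of the gamma-activated site, TTCNNNGAA, which reads the same on both strands, was held by Gbp5, Gbp7, Igtp and Irgm2, which is 4 of 8, against 9.55% of all genes. Gbp3 has a pair of promoters in the table, and its match lay in the first. A match is a description of the letters, and binding was not measured. The bases that lie directly upstream of the start are shown 5′ to 3′ for the 7 genes with a match, 250 bases for Gbp5 and Gbp7, whose matches spread widely, and 80 for the others. Capitals mark the matches to either core.
Gbp5, chr3:142496684-142496933, plus strand: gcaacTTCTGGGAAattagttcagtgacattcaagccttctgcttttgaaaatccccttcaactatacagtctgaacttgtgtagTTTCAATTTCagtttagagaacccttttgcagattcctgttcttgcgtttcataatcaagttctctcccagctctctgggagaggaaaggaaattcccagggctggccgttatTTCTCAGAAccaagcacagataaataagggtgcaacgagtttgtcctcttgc
Gbp7, chr3:142530086-142530335, plus strand: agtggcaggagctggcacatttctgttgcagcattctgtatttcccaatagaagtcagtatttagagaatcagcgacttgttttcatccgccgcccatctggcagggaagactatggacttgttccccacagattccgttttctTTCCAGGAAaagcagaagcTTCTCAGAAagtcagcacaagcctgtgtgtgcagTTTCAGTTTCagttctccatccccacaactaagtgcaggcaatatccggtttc
Gbp3, chr3:142559964-142560043, plus strand: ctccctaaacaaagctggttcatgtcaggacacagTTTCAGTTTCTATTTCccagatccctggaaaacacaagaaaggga
Gbp2, chr3:142620583-142620662, plus strand: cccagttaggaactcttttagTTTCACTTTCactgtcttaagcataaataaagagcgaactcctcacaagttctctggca
Irgm1, chr11:48871421-48871500, minus strand: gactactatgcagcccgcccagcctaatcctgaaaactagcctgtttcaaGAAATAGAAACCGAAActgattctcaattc
Igtp, chr11:58199476-58199555, plus strand: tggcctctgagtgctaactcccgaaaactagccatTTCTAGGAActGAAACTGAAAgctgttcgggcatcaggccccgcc
Irgm2, chr11:58214897-58214976, plus strand: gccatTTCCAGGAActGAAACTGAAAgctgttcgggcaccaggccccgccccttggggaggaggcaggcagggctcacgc
In Gbp3 and in Irgm1, 2 matches to the response element core overlap in 1 run. Those of Irgm1 read along the gene's strand and those of Gbp3 along the opposite strand, where the core appears as TTTC, 2 bases and TTTC. In Igtp and Irgm2, neighbours on chromosome 11, a TTCNNNGAA match lies just before one to the response element core, and the latter is the same 10 letters in both, GAAACTGAAA. The match nearest to the start was that of Irgm1, whose last base lies 15 bases upstream.

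Gbp3, Gbp5, Gbp7 and Irgm1 are each measured alone and carry the response element core. These 4 differed between genotypes by less than the standard error of the difference. Iigp1 had a lower level in every Ezh2-deficient heart than in any wild-type heart. Its promoter was not matched, so whether it carries the core is not known here. In the limma fit of all 28815 probe sets none of the 5 members (0) passed an adjusted p of 0.05, and 1, Iigp1, had an unadjusted p below 0.05, as lower. Among all probe sets 0.0347% passed the adjusted threshold, 0.0104% as lower and 0.0243% as higher, and 10.7% had an unadjusted p below 0.05, 5.45% as lower and 5.23% as higher. The mean was lower in Ezh2-deficient hearts at 4 of the 5 members, against 52.9% of all probe sets, and the groups did not overlap at 1 of the 5, against 3.71% of all probe sets (1.91% with the Ezh2-deficient hearts lower and 1.79% with them higher). The median of the 5 differences was -0.03 on the log2 scale, and that of all probe sets was -0.006. The median of the members has no settled sign: it was 0.0948 without wild-type heart 3 and -0.14 without wild-type heart 2 or 5, 0.13 among letter e hearts and -0.21 among letter x hearts.

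Among the IRG genes, Iigp1 (also called Irga6) encodes an effector that coats and disrupts the vacuoles of intracellular parasites. On the log2 scale it read 9.37, 9.23, 10.08, 9.74 and 9.66 in wild-type hearts 1 to 5, and 8.28, 8.95, 8.49 and 8.68 in Ezh2-deficient hearts 1 to 4. The lowest wild-type heart, 2, was above the highest Ezh2-deficient heart, 2. Means were 9.62 ± 0.33 (SD, n = 5) and 8.60 ± 0.28 (SD, n = 4), a difference of -1.02 (SE 0.18, 95% interval -1.42 to -0.62), or 0.494 of the wild-type level (95% interval 0.374 to 0.652). The difference did not pass over all probe sets (limma adjusted p = 0.118). The exact two-sided permutation test gave p = 0.00794, the smallest that 126 assignments of the 9 hearts allow, and since the gene was listed with earlier results known this p is a description. Of all probe sets 0.0208% had a difference at or below that of Iigp1 and 0.184% a limma p at or below its p. Among hearts of title letter e alone the difference was -0.82, and among those of letter x it was -1.11. With title letter and prime as a term in the fit it passed (-0.95, adjusted p = 0.0489), where 0.0937% of all probe sets passed.

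Irgm1 encodes the regulatory GTPase that restrains the effectors on lysosomes and other membranes and takes part in autophagy. It read 8.50, 8.07, 8.97, 8.67 and 8.32 in wild-type hearts and 8.51, 8.56, 8.34 and 8.54 in Ezh2-deficient hearts. All 4 Ezh2-deficient values lay inside the wild-type range. The difference was -0.02 (SE 0.15, 95% interval -0.36 to 0.32, limma adjusted p = 0.98), and the interval runs from 0.777 to 1.25 of the wild-type level. Among letter e hearts it was 0.24 and among letter x hearts -0.21.

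Among the GBP genes, Gbp5 encodes a lipid-anchored protein that also promotes inflammasome assembly. It read 7.08, 6.68, 7.84, 7.27 and 6.86 in wild-type hearts and 6.84, 7.14, 7.08 and 7.06 in Ezh2-deficient hearts. Its difference, -0.12 (SE 0.20, limma adjusted p = 0.873), was smaller than the wild-type SD of 0.45. Gbp7, which has been linked to the delivery of oxidase and autophagy proteins to vacuoles, read 9.42, 8.91, 10.02, 9.45 and 8.91 in wild-type hearts and 9.27, 9.40, 9.26 and 9.30 in Ezh2-deficient hearts. Its difference was -0.03 (SE 0.20, adjusted p = 0.975). Gbp3, the only member with a higher mean in Ezh2-deficient hearts, read 8.98, 8.33, 9.49, 9.19 and 8.39 in wild-type hearts and 8.82, 9.04, 9.22 and 8.98 in Ezh2-deficient hearts. Its difference was 0.14 (SE 0.23, 95% interval -0.37 to 0.65, adjusted p = 0.861), and it was 0.003 without wild-type heart 2, 0.0188 without heart 5 and 0.29 without heart 3. For each of these 3 genes all Ezh2-deficient values lay inside the wild-type range. GBP and IRG genes are close copies of their neighbours, so probes of 1 gene may also bind transcripts of another.

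**Figure D1:**
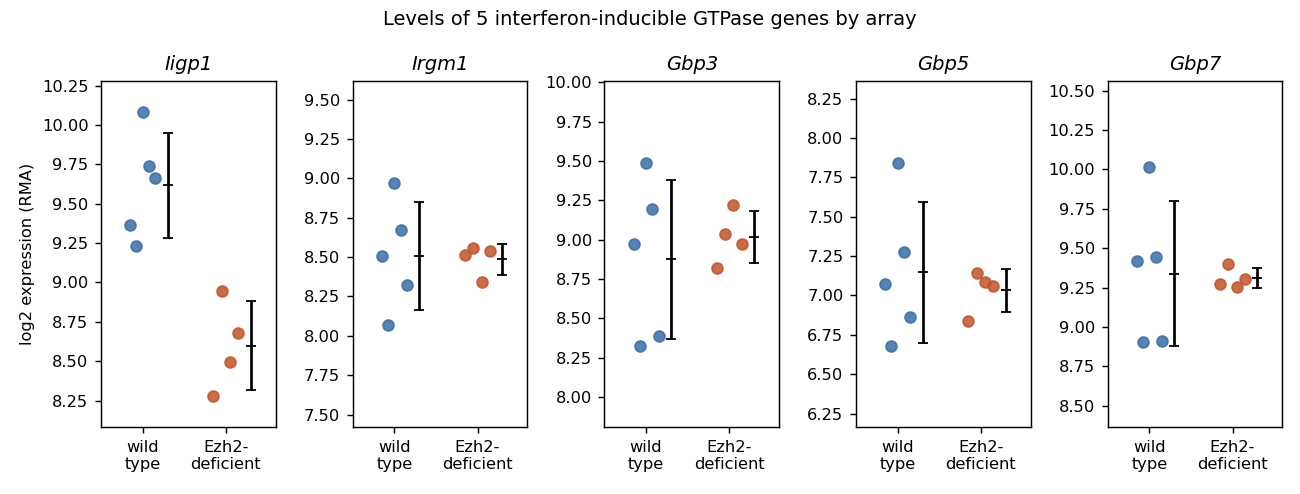
Level on the log2 scale (RMA values) of Iigp1, Irgm1, Gbp3, Gbp5 and Gbp7 in each of 5 wild-type (blue) and 4 Ezh2-deficient hearts (orange), each panel spanning 2.2 log2 units; black bars give the mean and SD of a group. The groups are apart for Iigp1, with means of 9.62 and 8.60, and for the other 4 genes the orange points lie within the range of the blue ones.

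The wild-type hearts spread more widely than the Ezh2-deficient hearts at the members. The SD of Gbp7 was 0.46 among wild-type and 0.06 among Ezh2-deficient hearts, that of Gbp5 0.45 and 0.14, that of Gbp3 0.51 and 0.17, and that of Irgm1 0.34 and 0.10. For Iigp1 the SDs were 0.33 and 0.28. The wild-type SD was the larger at 5 of 5 members, against 54.4% of all probe sets, and at 4 of 5 members without wild-type heart 3. Without that heart the wild-type SD was 0.26 for Gbp5, 0.30 for Gbp7, 0.43 for Gbp3, 0.26 for Irgm1 and 0.24 for Iigp1, the last below the 0.28 of the Ezh2-deficient hearts. Wild-type heart 3 was the highest of the 9 hearts at all 5 members, which was so for 9.60% of all probe sets. The lowest wild-type heart was 2 at all 5 members. The members were read in the same hearts and followed each other across them, so these counts are not 5 separate observations. Without wild-type heart 3 the differences of Irgm1, Gbp5 and Gbp7 turned from negative to positive, to 0.0948, 0.0593 and 0.14, and that of Iigp1 was -0.90 (limma adjusted p = 0.25).

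The members followed each other across the wild-type hearts, with heart 3 highest and heart 2 lowest at all 5. Across the Ezh2-deficient hearts they did so less evenly: heart 3 was the lowest for Irgm1 (8.34) and the highest for Gbp3 (9.22). After the mean of each genotype was taken from its hearts, Pearson's r over the 9 arrays lay between 0.851 and 0.951 for the 6 pairs among Irgm1, Gbp3, Gbp5 and Gbp7, and between 0.610 and 0.810 for the 4 pairs with Iigp1. With wild-type heart 3 then dropped, the ranges were 0.745 to 0.915 and 0.378 to 0.691. The means were not taken again, so the other wild-type hearts keep a shared offset that enters these r. These values are descriptions, since the arrays share their normalization and the probe sets may share transcripts. For the 4 genes other than Iigp1 they rest mostly on the wild-type hearts, which had the larger SDs. The mean of Irgm1, Gbp3, Gbp5 and Gbp7 was 8.47 ± 0.43 (SD, n = 5) for the wild type and 8.46 ± 0.07 (SD, n = 4) for Ezh2-deficient hearts. Iigp1 was therefore also set against the mean of those 4 genes on the same array, a measure chosen after the values were seen and given without a test. It stood 0.87, 1.24, 1.001, 1.09 and 1.54 above that mean in wild-type hearts 1 to 5, and -0.08, 0.41, 0.02 and 0.21 in Ezh2-deficient hearts 1 to 4. The distance differed by -1.01 between genotypes, close to the -1.02 of Iigp1 itself, and the groups did not overlap.

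**Figure D2:**
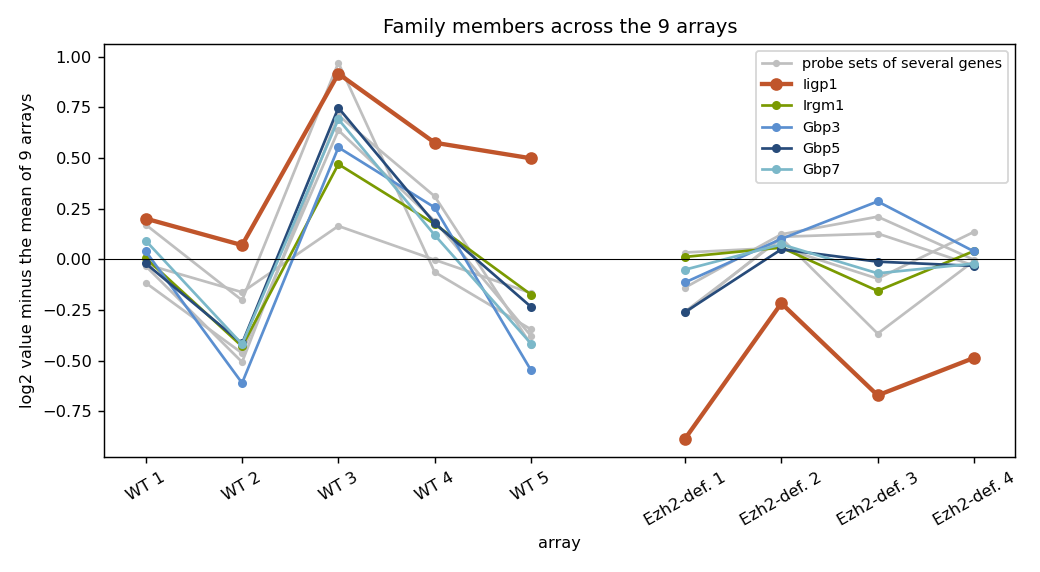
Log2 value of each member minus its own mean over the 9 arrays, for wild-type (WT) hearts 1 to 5 and Ezh2-deficient (Ezh2-def.) hearts 1 to 4; grey lines are the 4 probe sets annotated to several genes, and lines only join values of 1 probe set, since hearts have no order. The members peak together in wild-type heart 3, and Iigp1 (thick orange) lies below 0 in all 4 Ezh2-deficient hearts.

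The 5 listed genes without a probe set of their own were covered by shared probe sets. Irgm2 and Igtp, which encode the other regulators of the Irgm subgroup, share 1 probe set. It read 8.56, 8.18, 9.36, 8.32 and 8.04 in wild-type hearts and 8.13, 8.49, 8.02 and 8.38 in Ezh2-deficient hearts, and the groups overlapped (difference -0.24, SE 0.24, limma adjusted p = 0.755). Without wild-type heart 3 the difference was -0.0223 (adjusted p = 0.974). The probe set annotated to Gbp2 and Gbp2b differed by -0.03 (SE 0.23, adjusted p = 0.982), and the one annotated to Gbp6 and 5 other GBP genes by 0.06 (SE 0.20, adjusted p = 0.944). Ifi47, an effector-type IRG gene, shares its probe set with the olfactory receptor gene Olfr56, and that probe set differed by 0.09 (SE 0.09, adjusted p = 0.759). The first 3 of these probe sets, like the members, were highest in wild-type heart 3, at 9.36, 9.67 and 10.13, whereas the probe set of Olfr56 and Ifi47 was highest in Ezh2-deficient heart 3, at 6.11. Without wild-type heart 3 the difference was 0.15 for the probe set of Gbp2 and Gbp2b, 0.23 for that of 6 GBP genes and 0.14 for that of Olfr56 and Ifi47.

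Other genes of the families came from a list of 29 symbols, of which 13 had a probe set of their own. None (0) passed by limma in either direction, and 0 had an unadjusted p below 0.05. The groups overlapped at all 13, 8 had a lower and 5 a higher mean, and the median difference was -0.04. Gm4951, an IRG gene of the Iigp1 cluster, had the lowest difference of them, -0.34 (SE 0.20, adjusted p = 0.591), and read 7.80, 7.52, 8.49, 8.30 and 8.14 in wild-type hearts and 7.40, 8.12, 7.63 and 7.70 in Ezh2-deficient hearts. Gm12250, which encodes the effector Irgb10, differed by -0.24 (SE 0.25, adjusted p = 0.757). Wild-type heart 3 read 8.06 for it and the other 8 hearts 6.63 to 6.996, and without it the difference was 0.00075. Gbp11, annotated as a transcribed pseudogene, differed by 0.18 (SE 0.16, adjusted p = 0.725). Wild-type heart 3 was the highest at 9 of the 13.

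**Figure D3:**
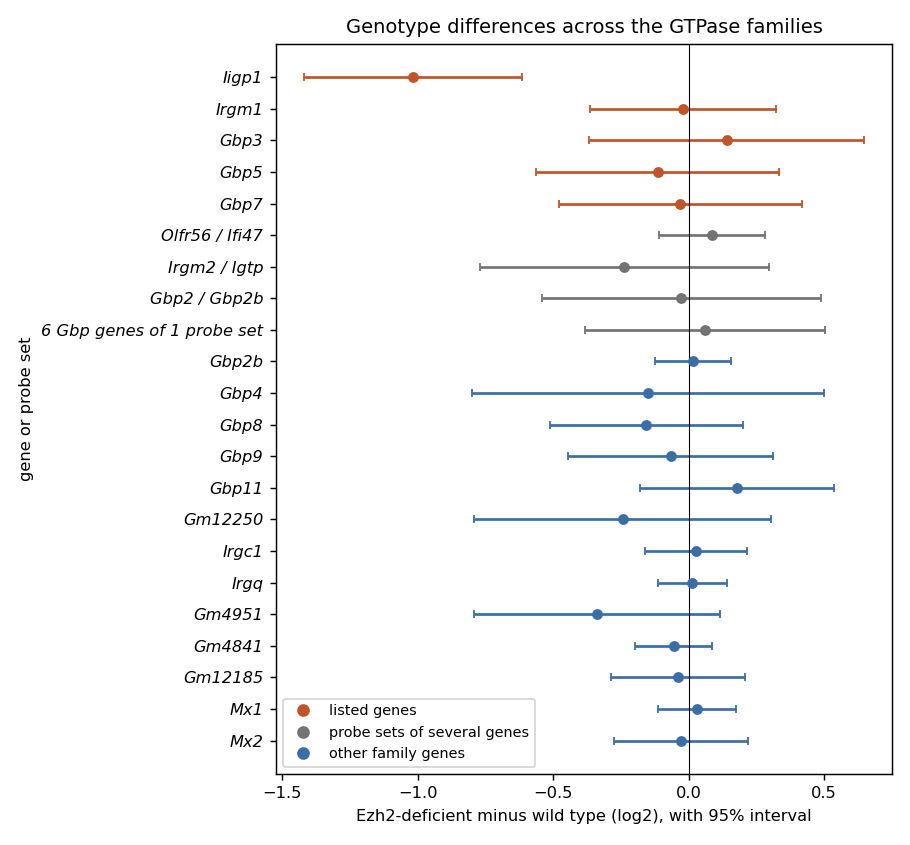
Log2 difference (Ezh2-deficient minus wild type) with limma's 95% interval, for the 5 listed genes with a probe set of their own (orange), the 4 probe sets annotated to several genes (grey) and 13 other family genes (blue). The interval of Iigp1, -1.42 to -0.62, lies wholly below 0, and those of all the others include 0.

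The families lie in clusters. In RefSeq's order of genes, 4 of the 10 listed genes lie on chromosome 3 (Gbp5, Gbp7, Gbp3 and Gbp2), 4 on chromosome 11 (Irgm1, Ifi47, Igtp and Irgm2), 1 on chromosome 5 (Gbp6) and 1 on chromosome 18 (Iigp1). Since Iigp1 stood apart, the 4 nearest measured genes on each side of it were read, a choice made after its value was seen. Among these 8 neighbours the groups did not overlap, with the Ezh2-deficient hearts lower, at 2, BC023105 and Smim3, which follow Iigp1 in 1 direction. Over all probe sets the share was 1.91%. Smim3, which encodes a small integral membrane protein, read 7.98, 7.94, 7.66, 8.01 and 7.95 in wild-type hearts and 7.03, 7.56, 7.31 and 7.22 in Ezh2-deficient hearts. Its difference was -0.63 (SE 0.11, limma adjusted p = 0.108), -0.83 among letter e hearts and -0.44 among letter x hearts. Unlike the GTPase genes, Smim3 was lowest among wild-type hearts in heart 3. BC023105 read 5.33, 4.46, 6.25, 4.32 and 4.57 in wild-type hearts and 3.98, 4.10, 3.94 and 4.17 in Ezh2-deficient hearts, all low on this scale, and differed by -0.94 (SE 0.35, adjusted p = 0.384), or -0.62 without wild-type heart 3. None of the 8 (0) passed by limma. An unadjusted limma p below 0.05 was found at 3, against 10.7% of all probe sets (5.45% as lower). These were BC023105, Smim3 and Dctn4, a dynactin subunit (-0.13, SE 0.06, adjusted p = 0.433). Gm4951, the second gene on the other side, differed by -0.34 as given above, and the groups overlapped. The other 4 were Gm4841 (-0.06), Chsy3 (0.08), Minar2 (-0.11) and Rbm22 (0.04).

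**Figure D4:**
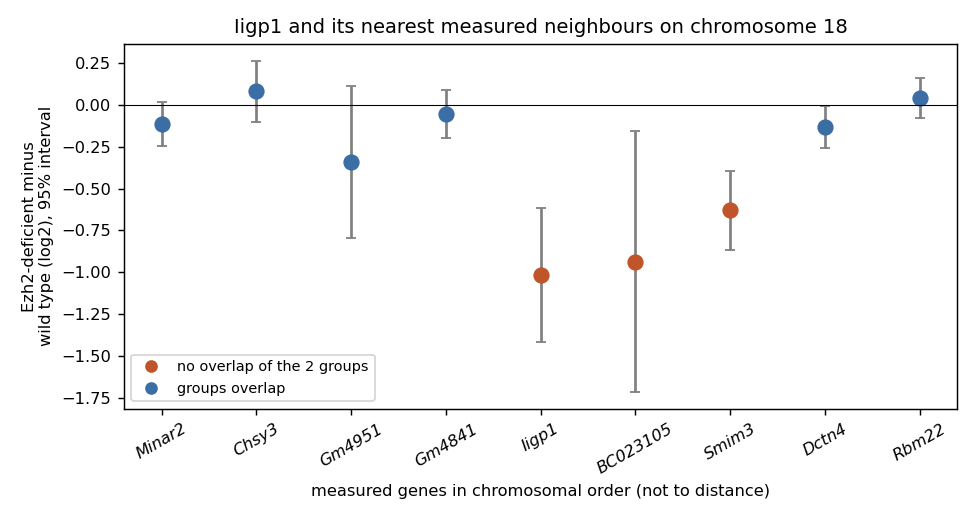
Log2 difference (Ezh2-deficient minus wild type) with limma's 95% interval for Iigp1 and the 4 nearest measured genes on each side, in chromosomal order and not to distance. Orange points mark Iigp1 (-1.02), BC023105 (-0.94) and Smim3 (-0.63), at which the 2 groups do not overlap.

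Upstream of the GTPases, ligands and receptors of the interferons were examined in 15 measured genes of a list of 17. None (0) passed by limma, and the median difference was -0.04. At an unadjusted p below 0.05, 1 was higher and 1 lower, against 5.23% and 5.45% of all probe sets. Ifngr1, the ligand-binding chain of the interferon gamma receptor, differed by 0.17 (SE 0.06, adjusted p = 0.368), and Il10rb, a chain shared by the receptors of interferon lambda and interleukin 10, by -0.15 (SE 0.05, adjusted p = 0.346). The keratinocyte interferon gene Ifnk differed by -0.10 (SE 0.05, adjusted p = 0.533). Ifng itself, named after its values were seen, lay between 5.81 and 6.06 in all 9 hearts, with 5.96 in wild-type heart 3. The 18 measured signalling genes gave 0 calls in limma and 0 unadjusted p below 0.05; their median difference was 0.05. Irf7, a transcription factor that amplifies the type I response, differed by 0.21 (SE 0.11, adjusted p = 0.545). Usp18, which dampens type I signalling, differed by 0.15 (SE 0.07, adjusted p = 0.478) and the myeloid factor Irf8 by 0.14 (SE 0.07, adjusted p = 0.485).

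Of 30 measured targets of type I interferon 27 had a higher mean in Ezh2-deficient hearts, against 47.1% of all probe sets, with a median difference of 0.12. In limma 0 passed, and 5 were higher and 0 lower at an unadjusted p below 0.05, against 5.23% and 5.45% of all probe sets. The groups did not overlap at 1 of the 30, as higher, against 1.79% of all probe sets. Ifitm3, a restriction factor for virus entry, read 11.16 ± 0.25 (SD, n = 5) and 11.59 ± 0.09 (SD, n = 4; difference 0.44, SE 0.12, limma adjusted p = 0.241) and was the only one of the 30 at which the groups did not overlap. Oasl2, of the oligoadenylate synthetase family, differed by 0.26 (SE 0.08, adjusted p = 0.306) and Bst2, which encodes tetherin, by 0.17 (SE 0.07, adjusted p = 0.404). Among letter e hearts the mean of this list differed by 0.17, and among letter x hearts by 0.14. The mean level of the list was 7.84 to 8.17 in wild-type and 8.05 to 8.21 in Ezh2-deficient hearts, so the groups overlapped. All 30 were read in the same hearts, so their differences are not independent. Of 25 measured targets of interferon gamma 12 had a higher and 13 a lower mean, the median difference was -0.0004, and in limma 0 passed, with 1 in each direction at an unadjusted p below 0.05. These were Serping1, the complement C1 inhibitor (0.33, SE 0.10, adjusted p = 0.289), and Psme1, a proteasome activator subunit (-0.21, SE 0.06, adjusted p = 0.256). The adhesion molecule gene Icam1 differed by 0.16 (SE 0.08, adjusted p = 0.499). Wild-type heart 3 was the highest at 13 of the 25 gamma targets and at 6 of the 30 type I targets. The lists hold genes that respond to both kinds of interferon.

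Proteins that load the GTPases onto vacuoles or act after them were read in 22 genes, with a median difference of -0.0005. In limma 0 passed, and 1 gene in each direction had an unadjusted p below 0.05, both without overlap of the groups. Among all probe sets 10.7% had such a p, and at 3.71% the groups did not overlap. Map1lc3a, an ATG8-family protein of autophagosomes, read 11.05 ± 0.04 (SD, n = 5) and 10.76 ± 0.05 (SD, n = 4; difference -0.29, SE 0.04, limma adjusted p = 0.0554). Casp4, the caspase that senses bacterial lipopolysaccharide after GBP proteins expose it, read 6.32 ± 0.12 (SD, n = 5) and 6.61 ± 0.11 (SD, n = 4; difference 0.29, SE 0.07, adjusted p = 0.213). Map1lc3b differed by -0.10 (SE 0.05, adjusted p = 0.526).

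The genes whose pattern was most like that of the members were named by Pearson's r to the mean of the 5 members, over 9 arrays with genotype means removed. The highest of 19929 genes were Xaf1 (r = 0.970), Gbp9 (0.966), H2-Q4 (0.965), Gbp4 (0.960), Gm4841 (0.959), Tas2r136 (0.940), Ttc5 (0.936) and Calcb (0.934). Gbp4, Gbp9 and Gm4841 belong to the same families. Xaf1, an interferon-induced regulator of apoptosis, is a member of the type I list, and H2-Q4 encodes a class I histocompatibility chain. With wild-type heart 3 dropped and the genotype means not taken again, the 8 values were 0.849 to 0.943. A shared offset of the other wild-type hearts enters them too. They were picked as the highest and are given without a test. Tas2r136 read 4.22 to 4.69 and Gm4841 5.65 to 5.99 over all hearts, both low on this scale. Ttc5 and Calcb were nearly flat, with wild-type ranges of 0.189 and 0.215.

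The tissue is whole ventricle and septum, so fewer cells of a type and less RNA per cell cannot be told apart. Of 14 endothelial markers 14 had a higher mean, against 47.1% of all probe sets, with a median difference of 0.21. Their mean level was 9.86 to 10.33 in wild-type and 10.33 to 10.43 in Ezh2-deficient hearts. In limma 0 passed and 4 were higher at an unadjusted p below 0.05, against 5.23% of all probe sets. Vwf, the von Willebrand factor gene, differed by 0.75 (SE 0.17, adjusted p = 0.171), Eng, endoglin, by 0.43 (SE 0.10, adjusted p = 0.193) and Pecam1 by 0.33 (SE 0.11, adjusted p = 0.328). Past limma's adjusted threshold were 0 of 12 fibroblast markers, and 9 were higher at an unadjusted p below 0.05, against 5.23% of all probe sets. All 12 had a higher mean (median 0.45), against 47.1% of all probe sets. Their mean level was 10.21 to 10.80 in wild-type and 10.90 to 11.19 in Ezh2-deficient hearts. Of 17 macrophage markers 16 had a higher mean (median 0.18), with mean levels of 8.10 to 8.53 and 8.35 to 8.72. Among letter e hearts the macrophage list differed by -0.02 and the fibroblast list by 0.24, and among letter x hearts by 0.34 and 0.69. Of 14 markers of T and NK cells 9 were higher (median 0.05); their mean level was 5.98 to 6.09 in wild-type hearts, with 6.02 in heart 3, and 5.98 to 6.40 in Ezh2-deficient hearts. Of 9 markers of B cells and neutrophils 6 were higher (median 0.05), with mean levels of 5.57 to 6.11 and 5.74 to 6.24. Of 12 cardiomyocyte markers 11 had a lower mean (median -0.05), against 52.9% of all probe sets. Mean levels were 13.31 to 13.42 and 13.16 to 13.37. The 3 measured erythroid markers had a median difference of 0.37, with levels of 6.95 to 7.69 and 7.47 to 8.83. The groups did not overlap, as higher, at 2 endothelial and 3 fibroblast markers, against 1.79% of all probe sets. They did not overlap, as lower, at 2 cardiomyocyte markers, against 1.91%. All markers were read in the same hearts, so their differences are not independent. In limma 0 markers of these lists passed, and the part of these cell types in the values of the GTPases was not tested. Without Ezh2-deficient heart 3, in which blood cell markers were highest, Iigp1 differed by -0.98 (limma adjusted p = 0.187), and without wild-type hearts 4 and 5 by -0.96 (adjusted p = 0.435).

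**Figure D5:**
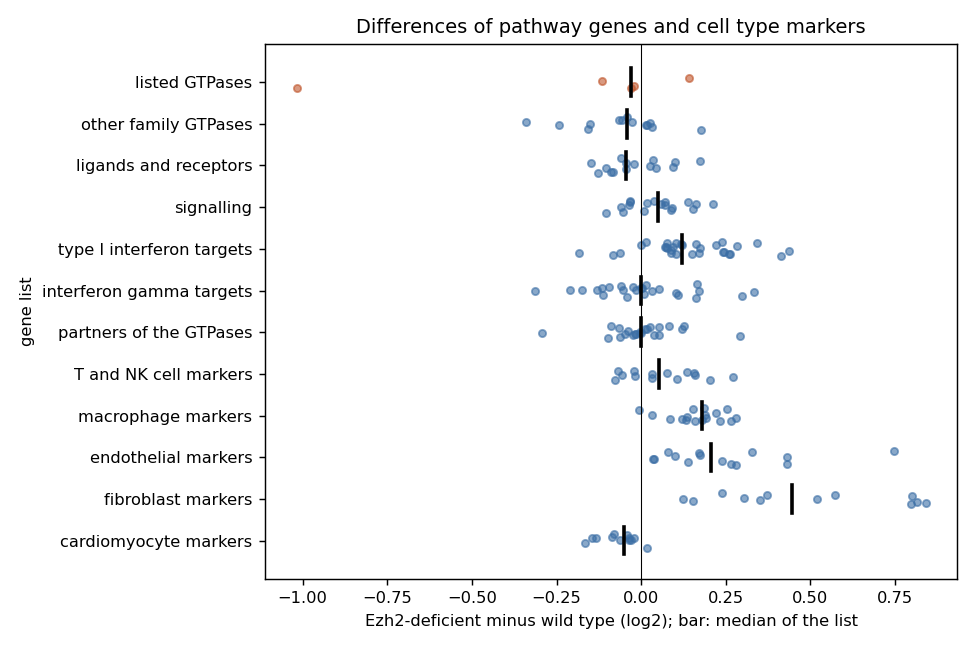
Log2 difference (Ezh2-deficient minus wild type) for each measured gene (points, spread vertically at random) of the 5 listed GTPases and 11 other lists, with the median of each list as a black bar. Iigp1 is the lone point near -1.02, and the medians run from -0.05 for cardiomyocyte markers to 0.45 for fibroblast markers.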

How the data were processed

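Per the submitters' processing notes, the authors used Affymetrix Power Tools with RMA; the deposited values are on a log2 scale, with 1 for every probe set of an array. No version or setting was found in the sources for this step. That the values are log2 was read from their range, 2.18 to 15.0. Columns of per-sample values that belong to no listed heart numbered 0, and no detection call is given. Of 28815 probe sets 21780 had 1 symbol in the platform annotation, 1605 several and 5430 none. Groups follow the description label; replicate numbers only name the hearts in accession order. The labels speak of separate mice, and the number of arrays limits the precision.

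All 28815 probe sets were fitted with limma 3.58.1 (R 4.3.3; lmFit and eBayes, genotype as the only term, two-sided, Benjamini-Hochberg adjustment, threshold 0.05) and the fit was tested on simulated data. Differences are Ezh2-deficient minus wild type.

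The members, lists and alternatives were chosen with earlier results of these data known. The naming rule took all members, up to 3 genes of each other list with the smallest p, the 8 genes most like the members and Ezh2. Of the marker lists only endothelial genes are named; Ifng, Mx1, Mx2, the shared probe sets of the observations and the neighbours of Iigp1 lie outside the rule and were named after their values were seen. Of the 5 members none has a further single-symbol probe set, so no other probe set could be tried. The alternatives were median centring, quantile normalization, dim probe sets left out (lowest 25% by mean), title letter (with or without the prime) as a term, each letter alone, a Y-linked covariate for sex, array weights, hearts left out, and a shorter promoter window.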

Additional observations from a re-analysis of the deposited data

Results flagged for a closer look

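A value was singled out where the gap between 1 heart and its nearest neighbour, as a share of the range of its group, was above Dixon's 95% critical value (0.829 for 4 hearts, 0.71 for 5). This was done for 46 groups of hearts, over the members, their shared probe sets and the list means, and chance alone gives about 1 in 20; 4 were above. None of the members or shared probe sets was among them. Ezh2-deficient heart 3 was the high one in the mean of the T and NK cell markers (6.40, others 5.98 to 6.00; gap share 0.963), of the B cell and neutrophil markers (6.24, others 5.74 to 5.81; 0.862) and of the erythroid markers (8.83, others 7.47 to 7.56; 0.93). The mean of the type I interferon targets was low in Ezh2-deficient heart 1 (8.05, others 8.20 to 8.21; 0.888). Wild-type heart 3, the highest at all 5 members, did not pass this limit at any of them.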

How the results depend on the processing

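Iigp1 was lower in Ezh2-deficient hearts in every setting tried, with differences of -1.13 to -0.82, and passed only with title letter and prime as a term, where 1 member was called; its adjusted p otherwise was 0.054 to 0.651. With the Y-linked covariate Iigp1 differed by -0.95 (limma adjusted p = 0.215). The other members were called in no setting, and the sign of several turned. For Irgm1 the difference was 0.00623 with letter and prime as a term and 0.24 within letter e, and for Gbp5 and Gbp7 it was 0.0715 and 0.13 within letter e. The probe set of Gbp2 and Gbp2b read 0.0113 with the letter as a term, 0.00354 with the prime added and 0.12 within letter e. The probe set of 6 GBP genes read -0.17 within letter x and -0.0553 with array weights, under which Gbp3 read -0.0591 and the probe set of Olfr56 and Ifi47 -0.0150. With 1 heart left out the ranges were -0.14 to 0.0948 for the median of the members, -0.13 to 0.0948 for Irgm1, 0.003 to 0.29 for Gbp3, -0.23 to 0.0593 for Gbp5, -0.14 to 0.14 for Gbp7, -0.35 to -0.0223 for Irgm2 and Igtp, -0.16 to 0.15 for Gbp2 and Gbp2b and -0.0503 to 0.23 for the 6 GBP genes. The median was also -0.20 with array weights. Members with a higher mean numbered 1 in the main fit, 1 to 4 with 1 heart left out, 4 within letter e, 2 with letter and prime as a term, 0 with array weights and 3 of 9 with the shared probe sets, an alternative chosen after seeing the data, as was Iigp1 relative to the other 4 members. Of all probe sets 10 were called, 17 with centred medians or the letter as a term, 20 without dim probe sets, 27 with letter and prime, 37 with array weights, 3 with the Y-linked covariate, 5 without wild-type hearts 4 and 5, 0 within either letter and 3 to 15 with 1 heart left out; causes were not tested. Within the upstream bases alone 2.98% of promoters held the response element core and 7.02% TTCNNNGAA, against 3.44% and 8.30% in the whole window. No paired analysis was possible because the replicate numbers follow sample order and pair nothing. The table has no signal over background.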

Other observations

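Further GTPase genes of the interferon response appear only on probe sets of several genes. The effector pair Tgtp1 and Tgtp2 is covered by a pair of probe sets, which read 9.91 and 9.91 in wild-type heart 3, 9.35 and 9.40 in wild-type heart 4 and 7.99 to 8.65 in the other 3 wild-type hearts. In Ezh2-deficient hearts they read 8.34 to 8.79, with differences of -0.36 (SE 0.34, limma adjusted p = 0.731) and -0.30 (SE 0.32, adjusted p = 0.77), and of -0.10 and -0.05 without wild-type heart 3. The probe set of Gvin1, a very large inducible GTPase, and Gm4070 read 9.51 in wild-type heart 3 and 8.46 to 9.09 elsewhere, with a difference of -0.00075 (SE 0.20, adjusted p = 0.9999). A further pair, annotated to Gvin1, Gm4070 and others, was also highest there (8.44 and 8.96) and differed by -0.04 and -0.0041. By contrast, the pair of probe sets of 9930111J21Rik1 and 9930111J21Rik2 was highest in wild-type heart 4. It read 8.273 and 8.529 there and 8.182 and 8.465 in heart 3, with differences of 0.0093 and 0.0091. Mx1 and Mx2 encode dynamin-like antiviral GTPases and are annotated by RefSeq as transcribed pseudogenes. Mx1 differed by 0.03 (SE 0.06, limma adjusted p = 0.895), with 5.36 in wild-type heart 3, its highest value. For Mx2 the difference was -0.03 (SE 0.11, limma adjusted p = 0.956), and Ezh2-deficient heart 2 was the highest, at 6.33.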
